A study of Homo sapiens with 12 samples.

Results

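Ribosome biogenesis factors are the proteins that transcribe, modify, cut and fold ribosomal RNA and assemble it with ribosomal proteins, and the 46 genes described here were chosen by name from this group: RNA polymerase I subunits and its initiation factor, proteins of the small nucleolar ribonucleoprotein particles (snoRNPs), the small-subunit processome, late maturation factors of the 40S subunit, assembly factors of the 60S subunit, abundant nucleolar proteins, and the transcription factor *MYC*. All 46 were found among the 57187 genes of the count table, 45 by the name it uses and *UTP4* by its Ensembl identifier, and all 46 passed the filter on low counts that kept 17211 genes. No expression value enters the rule, although the list was drawn up with earlier results of these libraries known. RNA sequencing covered 12 libraries, from 4 human cancer cell lines with 3 versions of each and 1 library per version. Breast cancer gave the lines MDA-MB-231 and HCC1954, and ovarian cancer gave OVCAR8 and SKOV3, which the labels write as OVAR-8 and SKOV-3. The versions were parental cells, which the labels list as untreated and a supplement of the study calls empty-vector controls, cells with a stable SIVA-WT transgene, and cells with a stable SIVA-D160N transgene, in which aspartate 160 of SIVA, a pro-apoptotic adaptor protein, is replaced by asparagine. Both transgenes were driven by a CMV promoter and selected with hygromycin as polyclonal pools, so that every version of a line is 1 pool and 1 library, and nothing separates the effect of a transgene from the history of its pool within a line. All comparisons between versions therefore rest on the 4 lines as replicates, each compared with itself.

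Ribosome production begins in the nucleolus, where RNA polymerase I copies the ribosomal DNA into a long precursor. SnoRNPs then guide methylation and pseudouridylation of the precursor, the small-subunit processome folds and cuts its 5′ part, and separate sets of factors carry the pre-40S and pre-60S particles to the cytoplasm. *PNO1* is an RNA-binding protein of the pre-40S particle that stays bound near the 3′ end of 18S ribosomal RNA until the endonuclease *NOB1* makes the last cut. *MYC*, a transcription factor that binds the E-box, is known as a direct activator of many of these genes in proliferating cells.

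Because the members share a function and one of them is an E-box-binding factor, the canonical E-box CACGTG, which reads the same on both strands, was searched in the promoters of the members (250 bases before to 50 bases from the annotated start on, RefSeq, GRCh38.p14). A promoter sequence was matched for 39 of the 46 members, and 17 of these 39 held the motif (43.6%), against 12.1% of 11959 genes in the fit, 8.77% of all 27305 genes of the promoter table, 29% of 100 other ribosome biogenesis genes and 6.35% of 63 genes for cytosolic ribosomal proteins. The reordered word GTGCAC, with the same base composition, was found in 7.69% of the member promoters and in 6.62% of those of the genes in the fit, and the median GC content was 64.0% and 65.3%. A match describes letters and is no measurement of binding. The promoter of *PNO1* (chr2:68157638-68157917, plus strand, 5′ to 3′) is shown because *PNO1* had the smallest p-value of the members in SIVA-D160N vs SIVA-WT, with the E-box in capitals.

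PNO1: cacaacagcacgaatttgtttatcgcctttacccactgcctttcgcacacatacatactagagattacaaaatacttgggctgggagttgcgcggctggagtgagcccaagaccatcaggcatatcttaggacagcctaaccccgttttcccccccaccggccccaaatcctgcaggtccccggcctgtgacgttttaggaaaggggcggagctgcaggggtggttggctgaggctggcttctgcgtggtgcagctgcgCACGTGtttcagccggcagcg

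The E-box began at base 10 from the start of *PNO1*, and over the members its first base lay between -237 and 43 from the start. Windows of 30 bases around it are shown for 7 further members, 1 or 2 from each of the 5 roles in which a promoter held the motif: *DDX21* (chr10:68956604-68956633, plus strand, first base at -31), *UTP20* (chr12:101280083-101280112, plus strand, first base at -10), *WDR43* (chr2:28894658-28894687, plus strand, first base at 4), *BYSL* (chr6:41921515-41921544, plus strand, first base at 29), *GNL3* (chr3:52686026-52686055, plus strand, first base at 7), *NOC3L* (chr10:94362903-94362932, minus strand, first base at 20) and *FBL* (chr19:39846356-39846385, minus strand, first base at 7). Positions count from 1 at the start whose promoter held the motif, and a negative value lies before it. For *DDX21* and *GNL3*, and for *GAR1* among the other members, the promoter of another annotated start, upstream of the site, held 0 sites.

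DDX21: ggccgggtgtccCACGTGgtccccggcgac

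UTP20: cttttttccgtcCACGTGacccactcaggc

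WDR43: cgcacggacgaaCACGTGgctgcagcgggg

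BYSL: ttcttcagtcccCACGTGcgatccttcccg

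GNL3: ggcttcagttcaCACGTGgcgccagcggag

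NOC3L: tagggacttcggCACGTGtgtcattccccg

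FBL: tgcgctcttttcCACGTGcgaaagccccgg

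The flanks of the motif differ among the 7 windows, and no base outside the capitals was part of the search. The other 9 members with the motif were *EBNA1BP2*, *RRP9*, *NOP14*, *GAR1*, *LTV1*, *NOP2*, *UTP4*, *MRTO4* and *PES1*, and none of the 3 members of RNA polymerase I transcription held it.

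The libraries held 35791455 to 45890398 counts, and a gene with 0 counts is limited to 0.0654 to 0.0838 CPM (counts scaled to the size of the library), taking 3 counts as the limit, which covers counting error only. Transcripts of the 46 members made up 0.497% to 1.13% of the counts, and each member had at least 468 counts in every library. *SIVA1* (parental, SIVA-WT and SIVA-D160N in turn) stood at 28.1, 80.7 and 68.2 CPM in MDA-MB-231, 0, 38.2 and 26.5 in HCC1954, 66.3, 177 and 161 in OVCAR8 and 52.6, 106 and 112 in SKOV3. *SIVA1*, whose count does not separate the transgene from the gene of the cell, thus had more CPM in both transfected versions than in the parental version of each line, and SIVA-D160N exceeded SIVA-WT in SKOV3 alone. The parental HCC1954 library stood apart with 0 counts of *SIVA1*, where the other 3 parental libraries had 28.1 to 66.3 CPM, and results are therefore also given without HCC1954. Among line markers, *CDH1* was at 694.7 to 815.7 CPM in HCC1954 and at no more than 0.493 CPM in the other lines, and *PAX8* was at 61.1 to 243.4 CPM in the ovarian lines and at no more than 3.43 CPM in the breast lines. *EPCAM*, *KRT8* and *KRT18* were also highest in HCC1954, with *KRT8* at 1708 to 2045 CPM in OVCAR8, but *KRT19* was highest in MDA-MB-231. The other ovarian markers did not separate the tissues. *WT1* was at 5.55 to 8.06 CPM in HCC1954 and at no more than 1.11 CPM in SKOV3. *SOX17* was at 7.10 to 9.41 CPM in SKOV3 and near 0 in OVCAR8, and *EMX2* was at no more than 0.35 CPM in any line. Nor did the breast markers separate the tissues. *ERBB2* was at 5736 to 9223 CPM in HCC1954 and 5964 to 12170 in SKOV3, against no more than 78.1 in the other lines. *GATA3*, *TFAP2A* and *ESR1* were highest in HCC1954, but *GATA3* and *TFAP2A* were lower in MDA-MB-231 than in OVCAR8. Of 6 markers of blood and endothelial cells, *HBB* had 0 counts in all 12 libraries, and the 2 with enough counts for the fit, *PECAM1* and *VWF*, had fitted log2 fold changes of -1.19 and -0.95 in SIVA-D160N vs parental, both with an unadjusted p under 0.05. The summed CPM of the 6 was 0.185 to 66.6 in parental, 0.134 to 64.0 in SIVA-WT and 0.123 to 34.3 in SIVA-D160N libraries, with the highest value of each in HCC1954, and their part in the results below was not tested.

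SIVA-D160N vs parental addresses how cells with the mutant transgene differ from the parental version of their line, and most members were slightly higher with it. No member passed the thresholds of an adjusted p under 0.05 (edgeR's quasi-likelihood test, Benjamini-Hochberg over 17211 genes) and a log2 fold change of at least 1.5 in either direction, and 1 of the 17211 genes did (0.00581%). The fitted log2 fold change of the members was above 0 for 44 of 46, against 48.3% of all genes tested, with a median of 0.26 beside a median of -0.01 over all genes. At an unadjusted p under 0.05, 23 members were higher and 0 lower, where 6.52% of all genes were higher and 7.68% lower. The lowest adjusted p among members was 0.128, so that no single member passed the correction, and the counts are a description. Counted line by line, 12 members were higher in 4 of 4 lines and 0 were lower in 4 of 4, against 6.95% and 9.06% of all genes.

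Within single lines, more members were above their parental level than below it in 3 lines and fewer in OVCAR8. The members above 0 numbered 40 of 46 in MDA-MB-231 (median log2 ratio 0.35, all genes 47.2%), 44 of 46 in HCC1954 (median log2 ratio 0.35, all genes 48.1%) and 44 of 46 in SKOV3 (median log2 ratio 0.40, all genes 50.3%). In OVCAR8 16 of 46 were above 0, with a median log2 ratio of -0.08, where 46.2% of all genes were above 0. At least 1.5-fold higher in SIVA-D160N than in parental cells were 9 members in MDA-MB-231 (8.72% of all genes), 6 members in HCC1954 (11.1% of all genes), 0 members in OVCAR8 (7.93% of all genes) and 8 members in SKOV3 (7.04%). Without HCC1954, the line with the SIVA1-negative parental library, the median of the fitted values was 0.21. In that fit 16 members (15 higher and 1 lower) had an unadjusted p under 0.05, against 9.66% of all genes in either direction. Without OVCAR8 the median was 0.35 and the count 33 (14.9% of all genes). Leaving out SKOV3 lowered the count to 12 members (13.4% of all genes) and leaving out MDA-MB-231 to 15 (11.3% of all genes). In a fit without the line as a replicate block, where the differences between lines count as error, the count was 0. In that fit 0.139% of all genes had an unadjusted p under 0.05, and 42 members were above 0.

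**Figure D1:**
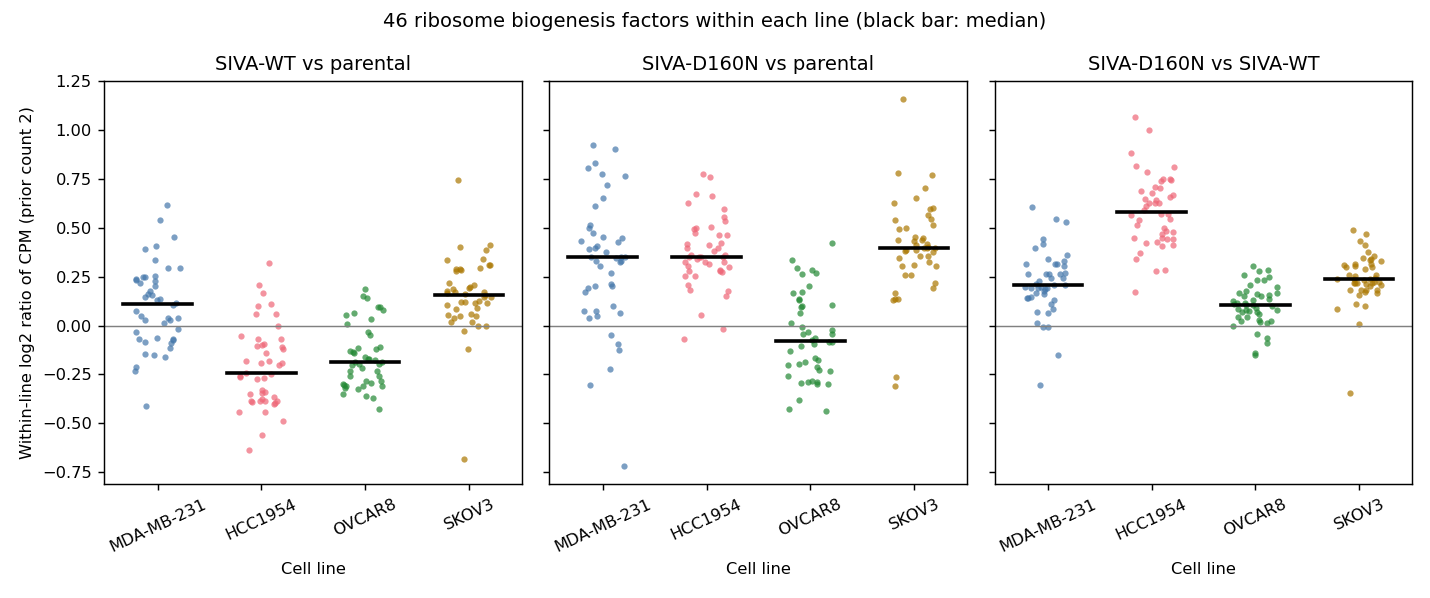
Each point is 1 of the 46 members and gives its log2 ratio of CPM between 2 versions of a line (vertical axis, prior count of 2), for the 4 lines (horizontal axis) and the 3 comparisons (panels), with black bars at the medians. In SIVA-D160N vs parental the medians of MDA-MB-231, HCC1954 and SKOV3 lie at 0.35, 0.35 and 0.40 and that of OVCAR8 at -0.08, while in SIVA-D160N vs SIVA-WT all 4 medians lie above 0.

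SIVA-D160N vs SIVA-WT compared the mutant with the wild-type transgene, and it uses the same SIVA-D160N libraries as the comparison above, so that the values of both are given side by side and not as independent observations. All 46 members had a fitted log2 fold change above 0 (49.4% of all genes), with a median of 0.29. At an unadjusted p under 0.05, 33 members were higher and 0 lower, against 2.58% and 4.30% of all genes, while the lowest adjusted p was 0.719 and 0% of all genes passed the thresholds. Counted over lines, 36 members were higher in 4 of 4 lines and 0 were lower in 4 of 4, against 12.1% and 11.7% of all genes. The members above 0 within a line numbered 42 in MDA-MB-231 (median log2 ratio 0.21, all genes 47.8%), 46 in HCC1954 (median log2 ratio 0.58, all genes 47.9%), 40 in OVCAR8 (median log2 ratio 0.11, all genes 49.5%) and 45 in SKOV3 (median log2 ratio 0.24, all genes 51.2%). HCC1954 had the most members at least 1.5-fold higher, 23 of 46 (7.40% of all genes), and the counts were 1 in MDA-MB-231 (3.89%) and 0 in OVCAR8 (3.38%) and SKOV3 (4.13%). Without HCC1954 the count at an unadjusted p under 0.05 was 6 members (0.41% of all genes were higher there), the median 0.19 and 44 members were above 0. Without MDA-MB-231 the count was 21 (1.9% of all genes were higher). Without the line as a replicate block the count was 0, where 0.0291% of all genes reached that p, and 45 members were above 0. A value above 0 here is not always a rise over parental. In OVCAR8 the member medians vs parental were -0.19 for SIVA-WT and -0.08 for SIVA-D160N. The SIVA-WT medians vs parental were -0.24 in HCC1954, 0.11 in MDA-MB-231 and 0.16 in SKOV3.

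SIVA-WT vs parental, the control for carrying a SIVA transgene, showed no direction shared by the lines. The fit had 14 of 46 members above 0 (48.4% of all genes) and a median of -0.04, and 0 members reached an unadjusted p under 0.05, where 1.47% of all genes were higher and 1.07% lower, and 0% of all genes passed the thresholds. The count at an unadjusted p under 0.05 was also 0 by DESeq2 and by limma-voom. The lines split, with members above 0 numbering 31 in MDA-MB-231 (median log2 ratio 0.11, all genes 46.7%), 7 in HCC1954 (median log2 ratio -0.24, all genes 51.4%), 10 in OVCAR8 (median log2 ratio -0.19, all genes 49.6%) and 42 in SKOV3 (median log2 ratio 0.16, all genes 51.2%). Counted over lines, 2 members, *UTP20* and *HEATR1*, were higher in 4 of 4 lines and 1, *RIOK1*, was lower in 4 of 4, against 4.96% and 4.92% of all genes. Leaving out HCC1954 or OVCAR8 turned the sign of the median, to 0.03 in each case. These are relative levels in bulk RNA, in which a higher share of a transcript and a smaller pool of all other RNA cannot be told apart, and neither can more RNA per cell and more cells with that RNA.

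**Figure D2:**
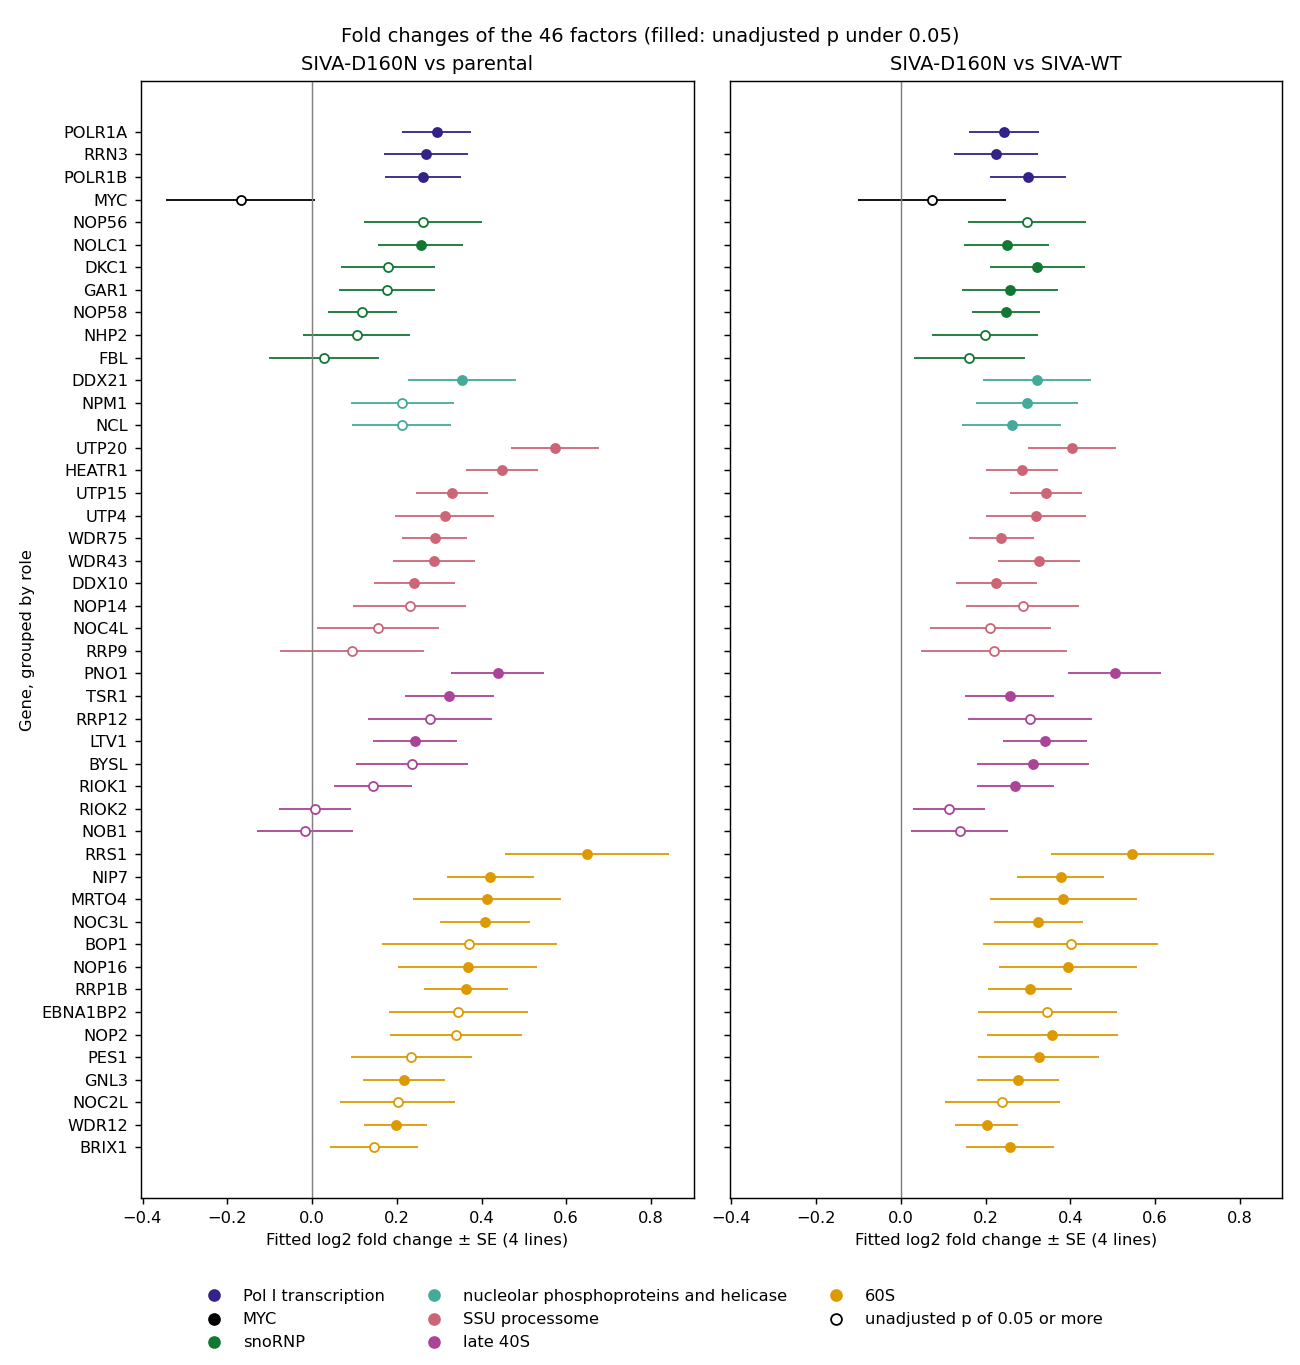
Points give the fitted log2 fold change of each of the 46 members (horizontal axis, bars ± SE from the fit over 4 lines) in SIVA-D160N vs parental (left) and SIVA-D160N vs SIVA-WT (right), grouped by role (colour), with filled points at an unadjusted p under 0.05. On the left 44 of 46 points lie above 0, with *MYC* and *NOB1* below, and on the right all 46 do.

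All 3 members of RNA polymerase I transcription were higher at an unadjusted p under 0.05 in both SIVA-D160N comparisons. For the counts by role, here and below, the shares of all genes higher at that p were 6.52% vs parental and 2.58% vs SIVA-WT. *POLR1A* encodes the largest subunit of the enzyme. *POLR1A* stood at 145, 150.5 and 189 CPM in MDA-MB-231, 112, 106 and 142 in HCC1954, 113, 121 and 124 in OVCAR8 and 95.4, 104 and 118 in SKOV3. The 3 values for each line are given in the order parental, SIVA-WT and SIVA-D160N here and below. SIVA-D160N cells had the highest *POLR1A* level of their line in all 4 lines, with log2 fold changes of 0.29 ± 0.08 (SE) vs parental (adjusted p = 0.193) and 0.24 ± 0.08 (SE) vs SIVA-WT (adjusted p = 0.719). *POLR1B* stood at 76.1, 72.4 and 86.9 CPM in MDA-MB-231, 70.8, 67.4 and 100.3 in HCC1954, 139, 149 and 160.3 in OVCAR8 and 37.6, 34.6 and 41.3 in SKOV3. The SIVA-D160N level of *POLR1B*, which encodes the other large catalytic subunit, was also the highest of its line in all 4 lines, with fitted log2 fold changes of 0.26 ± 0.09 (SE) and 0.30 ± 0.09 (SE). *RRN3* stood at 53.5, 49.3 and 49.1 CPM in MDA-MB-231, 74.0, 77.0 and 102 in HCC1954, 83.3, 88.1 and 105 in OVCAR8 and 58.4, 65.6 and 76.4 in SKOV3. *RRN3* encodes the initiation factor that brings the polymerase to the ribosomal DNA promoter, and its level was highest in SIVA-D160N cells of 3 lines but not of MDA-MB-231, with log2 fold changes of 0.27 ± 0.10 (SE) and 0.22 ± 0.10 (SE). *RRN3* has near-identical copies in the genome, and how their reads were split is uncertain.

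*MYC* itself had no shared direction over the lines. *MYC* stood at 308, 232 and 188 CPM in MDA-MB-231, 97.3, 121 and 147 in HCC1954, 185, 170.4 and 160.2 in OVCAR8 and 91.4, 56.9 and 73.9 in SKOV3. The SIVA-D160N library had the lowest *MYC* level of its line in MDA-MB-231 and OVCAR8, the highest in HCC1954 and the middle one in SKOV3. The fitted log2 fold changes were -0.17 ± 0.18 (SE) vs parental (adjusted p = 0.703) and 0.07 ± 0.18 (SE) vs SIVA-WT (adjusted p = 0.955), and -0.24 ± 0.18 (SE) in SIVA-WT vs parental. In exact sign-flip permutation tests over the 4 lines (two-sided, smallest possible p of 0.125), *MYC* gave p = 0.625 vs parental and p = 0.875 vs SIVA-WT. Of 11 tested genes of the *MYC* network, dimerization partners and antagonists of *MYC*, 1 was higher and 2 were lower at an unadjusted p under 0.05 in SIVA-D160N vs parental. The shares of all genes were 6.52% and 7.68%.

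**Figure D3:**
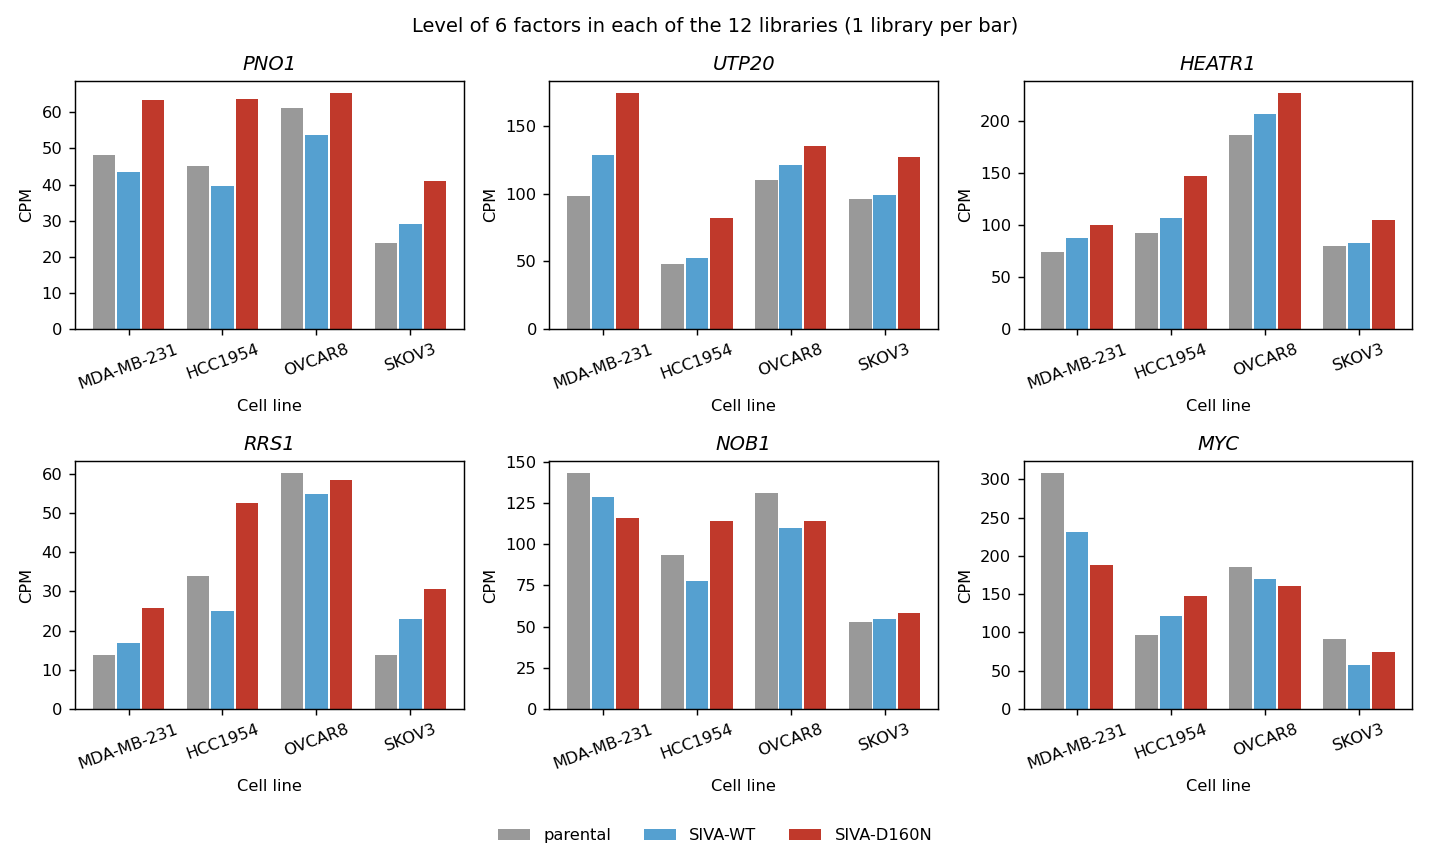
Bars give CPM (vertical axis, from 0) of 6 members in each of the 12 libraries, by line (horizontal axis) and version (colour), with 1 library per bar and no error bar. The SIVA-D160N bar is the tallest of its line in all 4 lines for *PNO1*, *UTP20* and *HEATR1*, in 3 lines for *RRS1*, in 2 for *NOB1* and in 1 for *MYC*.

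The 7 snoRNP genes encode the core proteins of the box C/D particles (*FBL*, the methyltransferase fibrillarin, with *NOP56* and *NOP58*), those of the box H/ACA particles (*DKC1*, the pseudouridine synthase dyskerin, with *GAR1* and *NHP2*) and the chaperone *NOLC1*. All 7 had fitted values above 0 in both SIVA-D160N comparisons, with medians of 0.18 vs parental and 0.25 vs SIVA-WT, and the members at an unadjusted p under 0.05 numbered 1 (*NOLC1*) and 4. *FBL* stood at 202, 221 and 232 CPM in MDA-MB-231, 209, 159 and 237 in HCC1954, 301, 225 and 224 in OVCAR8 and 94.5, 106 and 106 in SKOV3. *FBL* was lower in SIVA-D160N than in parental OVCAR8 and higher in the other lines, and its fitted log2 fold changes of 0.03 ± 0.13 (SE) vs parental and 0.16 ± 0.13 (SE) vs SIVA-WT had adjusted p-values of 0.945 and 0.821. *NOP56* stood at 143, 181 and 225 CPM in MDA-MB-231, 283, 223 and 352 in HCC1954, 611, 502 and 509.9 in OVCAR8 and 205, 230.5 and 262 in SKOV3. The same line split was seen in *NOP56*, whose fitted values were 0.26 ± 0.14 (SE) vs parental and 0.30 ± 0.14 (SE) vs SIVA-WT. *DKC1* stood at 256, 241 and 269.7 CPM in MDA-MB-231, 209, 160.4 and 262 in HCC1954, 210.3, 181 and 195 in OVCAR8 and 118, 128 and 158 in SKOV3. *DKC1* was highest in SIVA-D160N cells of MDA-MB-231, HCC1954 and SKOV3, with fitted values of 0.18 ± 0.11 (SE) vs parental and 0.32 ± 0.11 (SE) vs SIVA-WT (adjusted p = 0.719).

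Nucleophosmin (*NPM1*) and nucleolin (*NCL*) are the bulk phosphoproteins of the nucleolus, and *DDX21* is a nucleolar RNA helicase. Per kilobase of exon, *NPM1* and *NCL* had the highest mean levels of the 45 members with a known exon length, at 217.3 and 144.0 CPM per kb over the 12 libraries, while *DDX10*, *UTP15* and *RIOK2* had the lowest, at 4.10, 5.55 and 5.82 CPM per kb. *NPM1* stood at 2224, 2266 and 2508 CPM in MDA-MB-231, 1036, 786 and 1322 in HCC1954, 3062, 2735 and 2888 in OVCAR8 and 824, 932 and 1089.7 in SKOV3. *NCL* stood at 1220.2, 1402 and 1602 CPM in MDA-MB-231, 1088, 852 and 1318 in HCC1954, 1740.3, 1516 and 1590.3 in OVCAR8 and 922, 1019.9 and 1143 in SKOV3. Both were highest in SIVA-D160N cells of 3 lines, and in OVCAR8 the parental library had the highest level of each. Log2 fold changes vs parental were 0.21 ± 0.12 (SE) for *NPM1* and 0.21 ± 0.12 (SE) for *NCL*, and vs SIVA-WT 0.30 ± 0.12 (SE) (adjusted p = 0.719) and 0.26 ± 0.12 (SE) (adjusted p = 0.725). *DDX21* had fitted values of 0.35 ± 0.13 (SE) and 0.32 ± 0.13 (SE). *NPM1* has many processed copies in the genome, so that its count depends on how reads shared with them were assigned.

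The small-subunit processome gave the members with the smallest adjusted p in SIVA-D160N vs parental. Of its 10 members, 7 were higher at an unadjusted p under 0.05 in each SIVA-D160N comparison, with medians of 0.29 vs parental and 0.29 vs SIVA-WT. *UTP20* stood at 98.0, 128 and 175 CPM in MDA-MB-231, 48.3, 52.2 and 81.9 in HCC1954, 110.2, 121 and 135 in OVCAR8 and 96.5, 99.2 and 127 in SKOV3. *UTP20*, a very large HEAT-repeat scaffold of the processome, had its lowest level in the parental, the middle one in the SIVA-WT and the highest in the SIVA-D160N library of each of the 4 lines, and its log2 fold changes were 0.57 ± 0.10 (SE) vs parental (adjusted p = 0.128) and 0.40 ± 0.10 (SE) vs SIVA-WT (adjusted p = 0.719). *HEATR1* stood at 73.8, 86.9 and 99.7 CPM in MDA-MB-231, 92.1, 106 and 147 in HCC1954, 186, 206 and 227 in OVCAR8 and 79.6, 82.9 and 104 in SKOV3. *HEATR1*, another HEAT-repeat protein, which is needed for early processing and for transcription of the precursor, had the same order in each line, with 0.45 ± 0.08 (SE) vs parental (adjusted p = 0.128) and 0.29 ± 0.08 (SE) vs SIVA-WT (adjusted p = 0.719). Other tools put both past an adjusted p of 0.05 in SIVA-D160N vs parental, DESeq2 at 0.00076 and 0.000729 and limma-voom at 0.0478 and 0.0495, while RLE, upper-quartile or total-count scaling in edgeR did not. *UTP15*, *WDR43*, *WDR75* and *UTP4*, subunits of the complex that binds the nascent precursor first, had values of 0.33 ± 0.09 (SE), 0.29 ± 0.10 (SE), 0.29 ± 0.08 (SE) and 0.31 ± 0.12 (SE) vs parental. *DDX10* stood at 67.4, 75.1 and 85.7 CPM in MDA-MB-231, 34.9, 32.5 and 43.7 in HCC1954, 158, 139.7 and 149.7 in OVCAR8 and 29.8, 34.2 and 38.9 in SKOV3. The helicase gene *DDX10* was higher than parental in 3 lines and not in OVCAR8, with 0.24 ± 0.10 (SE) vs parental and 0.23 ± 0.10 (SE) vs SIVA-WT. *NOP14* stood at 86.0, 94.6 and 99.1 CPM in MDA-MB-231, 79.6, 60.4 and 106 in HCC1954, 103, 94.1 and 91.5 in OVCAR8 and 59.2, 65.6 and 81.2 in SKOV3. *NOP14*, which links early and late steps of the small subunit, had 0.23 ± 0.13 (SE) and 0.29 ± 0.13 (SE), and *NOC4L* and *RRP9* had the smallest fitted values of the role vs parental, 0.16 ± 0.14 (SE) and 0.09 ± 0.17 (SE).

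Among the 8 late factors of the 40S subunit, *PNO1* had the highest fitted values and its partner *NOB1* and the kinase gene *RIOK2* the lowest. *PNO1* stood at 48.1, 43.5 and 63.4 CPM in MDA-MB-231, 45.1, 39.5 and 63.8 in HCC1954, 61.1, 53.7 and 65.4 in OVCAR8 and 23.9, 29.1 and 40.9 in SKOV3. The SIVA-D160N library had the highest *PNO1* level of its line in all 4 lines, while SIVA-WT cells were below parental cells in 3 lines and above them in SKOV3. Log2 fold changes were 0.44 ± 0.11 (SE) vs parental (adjusted p = 0.159), 0.50 ± 0.11 (SE) vs SIVA-WT (adjusted p = 0.719) and -0.07 ± 0.11 (SE) in SIVA-WT vs parental. In the exact sign-flip permutation test over the 4 lines *PNO1* gave p = 0.125 vs parental and vs SIVA-WT, the smallest p that 4 lines allow, and 0.28 after adjustment over 9 such tests. *NOB1* stood at 143, 129 and 116 CPM in MDA-MB-231, 93.7, 78.0 and 114 in HCC1954, 131, 109.9 and 114 in OVCAR8 and 52.8, 54.7 and 58.0 in SKOV3. *NOB1*, the endonuclease that finishes 18S ribosomal RNA, was below parental in SIVA-D160N cells of MDA-MB-231 and OVCAR8 and above it in HCC1954 and SKOV3, with a fitted value of -0.02 ± 0.11 (SE). *RIOK2* stood at 46.1, 43.4 and 43.2 CPM in MDA-MB-231, 27.6, 23.3 and 26.3 in HCC1954, 36.3, 33.6 and 38.0 in OVCAR8 and 21.1, 21.4 and 23.2 in SKOV3. *RIOK2* encodes an atypical kinase of the pre-40S particle, and its SIVA-D160N levels differed from parental by no more than 0.13 on the log2 scale in any line. *RIOK1* stood at 63.6, 54.9 and 61.5 CPM in MDA-MB-231, 25.5, 24.5 and 34.2 in HCC1954, 86.9, 75.8 and 87.7 in OVCAR8 and 19.7, 19.4 and 22.6 in SKOV3. *RIOK1*, of the same kinase family, had fitted values of 0.14 ± 0.09 (SE) vs parental and 0.27 ± 0.09 (SE) vs SIVA-WT. *BYSL* stood at 89.1, 98.7 and 112 CPM in MDA-MB-231, 52.8, 43.6 and 67.5 in HCC1954, 81.9, 63.4 and 67.2 in OVCAR8 and 22.5, 26.2 and 33.4 in SKOV3. *RRP12* stood at 119, 121 and 143 CPM in MDA-MB-231, 51.3, 45.3 and 75.6 in HCC1954, 114, 92.2 and 92.9 in OVCAR8 and 16.1, 21.3 and 24.5 in SKOV3. *BYSL* and *RRP12* act on the pre-40S particle at its export, and both were above parental in 3 lines and below it in OVCAR8, with fitted values of 0.24 ± 0.13 (SE) and 0.28 ± 0.15 (SE) vs parental. *TSR1* and *LTV1*, which hold the pre-40S particle inactive, had 0.32 ± 0.10 (SE) and 0.24 ± 0.10 (SE) vs parental, each with an unadjusted p under 0.05.

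The 14 factors of the 60S subunit had the highest medians of the roles with more than 1 member, 0.35 vs parental and 0.34 vs SIVA-WT, with 8 and 11 members at an unadjusted p under 0.05. *RRS1* stood at 13.8, 16.9 and 25.8 CPM in MDA-MB-231, 33.8, 24.9 and 52.4 in HCC1954, 60.1, 54.9 and 58.4 in OVCAR8 and 13.7, 23.0 and 30.6 in SKOV3. *RRS1*, which helps to bring 5S ribosomal RNA into the pre-60S particle, had the largest fitted value of all members in both comparisons, 0.65 ± 0.19 (SE) vs parental (adjusted p = 0.211) and 0.55 ± 0.19 (SE) vs SIVA-WT (adjusted p = 0.719). The within-line log2 ratios of *RRS1* to parental were 0.90, 0.63, -0.04 and 1.16 in the 4 lines, so that OVCAR8 alone was not above 0. The trimer of *PES1*, *BOP1* and *WDR12* is needed to process the precursor of the large-subunit RNA. *PES1* stood at 103, 103 and 131 CPM in MDA-MB-231, 159.8, 126 and 222 in HCC1954, 175, 139.7 and 142 in OVCAR8 and 118, 145 and 156 in SKOV3. *BOP1* stood at 86.4, 126 and 151 CPM in MDA-MB-231, 108, 69.6 and 139 in HCC1954, 330.2, 269 and 244 in OVCAR8 and 55.6, 68.8 and 95.4 in SKOV3. *PES1* and *BOP1* were above parental in 3 lines and below it in OVCAR8, with fitted values of 0.23 ± 0.14 (SE) and 0.37 ± 0.21 (SE) vs parental and 0.33 ± 0.14 (SE) and 0.40 ± 0.21 (SE) vs SIVA-WT. *WDR12* stood at 83.2, 79.3 and 87.6 CPM in MDA-MB-231, 39.8, 39.7 and 48.4 in HCC1954, 69.2, 69.5 and 78.1 in OVCAR8 and 37.1, 38.3 and 44.4 in SKOV3. *WDR12* was highest in the SIVA-D160N library of all 4 lines, by small amounts, with 0.20 ± 0.07 (SE) vs parental (adjusted p = 0.278) and 0.20 ± 0.07 (SE) vs SIVA-WT (adjusted p = 0.719). *NOP16* stood at 65.3, 86.6 and 111 CPM in MDA-MB-231, 52.9, 37.7 and 63.1 in HCC1954, 133, 104 and 117 in OVCAR8 and 15.9, 20.8 and 25.9 in SKOV3. *NOC2L* stood at 143, 160.2 and 183 CPM in MDA-MB-231, 215, 167 and 265 in HCC1954, 264, 225 and 215 in OVCAR8 and 158, 194 and 216 in SKOV3. *NOP16*, a nucleolar 60S factor, had 0.37 ± 0.16 (SE) vs parental and *NOC2L*, which accompanies pre-60S particles in the nucleus together with *NOC3L*, 0.20 ± 0.14 (SE), and both were below parental in OVCAR8 alone. *NIP7*, *NOC3L* and *RRP1B* were higher than parental in 4 of 4 lines, with 0.42 ± 0.10 (SE), 0.41 ± 0.11 (SE) and 0.36 ± 0.10 (SE), and the remaining 5 genes, *NOP2*, *EBNA1BP2*, *BRIX1*, *GNL3* and *MRTO4*, had values from 0.15 to 0.41.

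Other genes of the pathway were read from a list of 115 further ribosome biogenesis genes. In SIVA-D160N vs parental 31 of the 115 were higher and 1 lower at an unadjusted p under 0.05, with 103 above 0 and a median of 0.16, and in SIVA-D160N vs SIVA-WT 40 were higher and 0 lower, with 112 above 0 and a median of 0.22, against the shares of all genes given above. The smallest p-values vs parental belonged to *ESF1*, *WDR3* and *DDX18*, nucleolar factors of both subunits, at 0.46 ± 0.09, 0.36 ± 0.08 and 0.44 ± 0.10, and those on the low side to *RSL24D1*, *NOP53* and *ZNF622*, which act on the 60S particle, at -0.22 ± 0.10, -0.19 ± 0.09 and -0.15 ± 0.11, of which *RSL24D1* alone had an unadjusted p under 0.05. *POLR1G*, a subunit of RNA polymerase I, had 0.53 ± 0.16 vs SIVA-WT. The 6 late 40S factors among the 115 differed from the rest, with 1 above 0, 5 below 0 and a median of -0.03 vs parental. Vs SIVA-WT all 6 were above 0, with a median of 0.05. The 79 cytosolic ribosomal protein genes had 0 higher and 1 lower vs parental, 14 above 0 and a median of -0.06, and with 77 above 0, 0 past an unadjusted p of 0.05 and a median of 0.09 vs SIVA-WT. In SIVA-WT vs parental 76 of the 79 were below 0, with a median of -0.15. Genes of proliferation were set beside the members. Of 20 genes, 10 were higher vs parental (6.52% of all genes) and 4 vs SIVA-WT (2.58% of all genes) at an unadjusted p under 0.05. All 20 were above 0 in each, against 48.3% and 49.4% of all genes. Their summed level was 4343 to 5742 CPM in parental, 4313 to 5684 in SIVA-WT and 5179 to 6067 in SIVA-D160N libraries. Within lines, their median log2 ratios vs parental were 0.46, 0.27, -0.06 and 0.27 in MDA-MB-231, HCC1954, OVCAR8 and SKOV3, with OVCAR8 the lowest as for the members, and their part in the members' values was not tested.

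Length, promoter motif and position, none of which entered the choice of members, were set beside the fitted values. By exon length, the 23 shorter members with a length had a median of 0.24 and the 22 longer ones 0.27 in SIVA-D160N vs parental, and 0.29 and 0.29 vs SIVA-WT, while over all genes genes with under 2611 bases and those with over 7540 had medians of -0.05 and 0.03 vs parental. Members with the CACGTG motif printed above (17) had medians of 0.29 vs parental and 0.32 vs SIVA-WT, and those with a promoter but no motif (22) 0.23 and 0.26, with overlapping ranges. *UTP4*, *NIP7* and *NOB1* are near neighbours on chromosome 16 (chr16:69132649-69169021, chr16:69339772-69343106 and chr16:69741871-69754926, GRCh38), and their fitted values vs parental were 0.31 ± 0.12 (SE), 0.42 ± 0.10 (SE) and -0.02 ± 0.11 (SE).

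Levels differed among the lines for all members, in a test where the 3 libraries of a line, 1 per version, stood as its replicates. All 46 members differed among the 4 lines at an adjusted p under 0.05, which 93.9% of all genes did, and 31 did so with at least 2-fold between the highest and the lowest line (72.7% of all genes), a share of members close to that of all genes in each case. The median fold between the highest and the lowest line was 2.37 for the members and 3.13 for all genes. OVCAR8 had the highest mean level for 30 of the 46 members and SKOV3 the lowest for 35. Against the mean of the other lines, 18 members were at least 2-fold lower in SKOV3 at an adjusted p under 0.05 (14.7% of all genes) and 0 higher (19.9%), with a median log2 difference of -0.79 beside 0.06 for all genes. Among these 18 were *FBL*, *NOP2*, *MYC*, *NOB1* and *NPM1*. OVCAR8 had 9 members at least 2-fold higher, a share close to that of all genes (19.4%), and 0 lower (14.9% of all genes). The median log2 difference was 0.55. MDA-MB-231 had 4 higher, *RRP12*, *BYSL*, *MYC* and *NOC3L* (16.0%), and 0 lower (17.1%), and HCC1954 had 0 higher (20.8%) and 2 lower, *UTP20* and *NOC3L* (15.8%). The median log2 differences of the ribosomal proteins were 0.48 in OVCAR8 and -0.57 in SKOV3, and those of the proliferation genes 0.18 and -0.16.

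**Figure D4:**
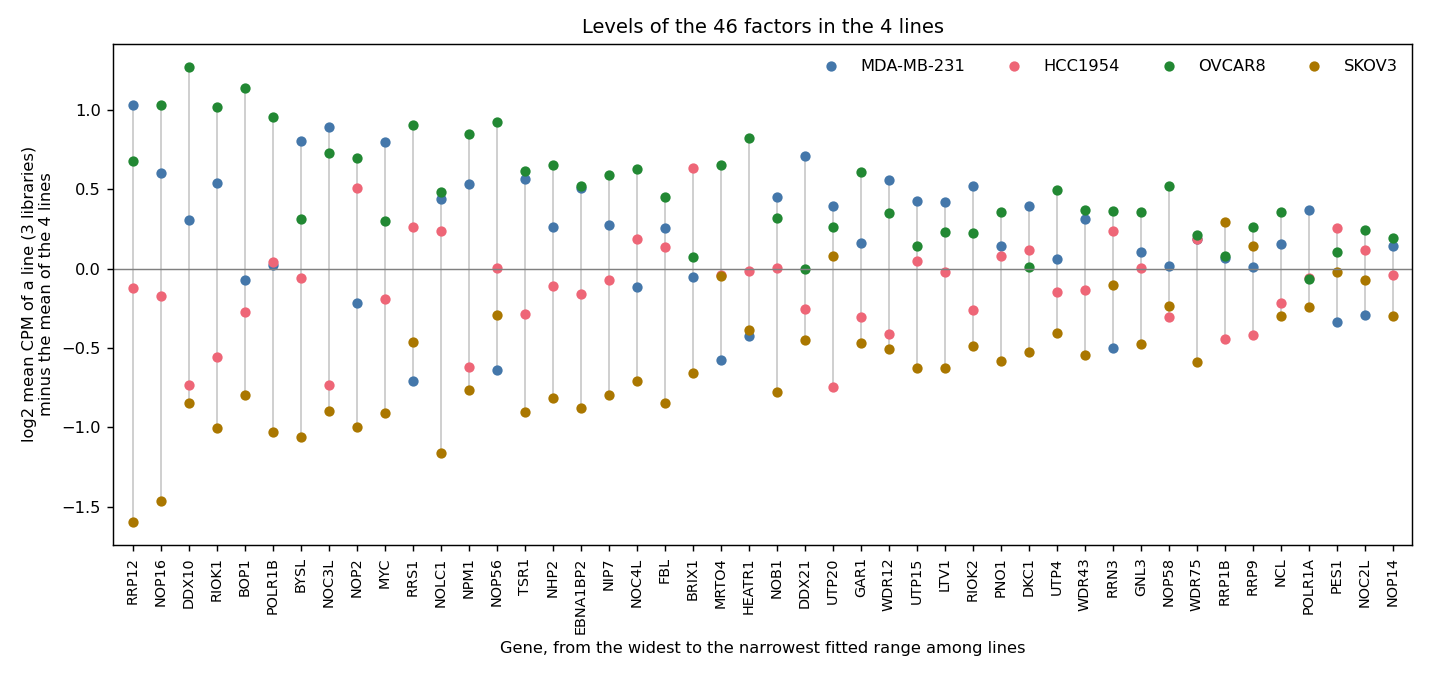
Points give, for each of the 46 members (horizontal axis, ordered by the fitted range among lines), the log2 of the mean CPM of a line over its 3 libraries minus the mean of the 4 lines (vertical axis), coloured by line and joined by a grey line. OVCAR8 is the highest point for 30 members and SKOV3 the lowest for 35, and the range runs from 6.21-fold for *RRP12* to 1.42-fold for *NOP14*.

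The widest ranges among the lines were those of *RRP12* (6.21-fold), *NOP16* (5.75-fold), *DDX10* (4.37-fold) and *RIOK1* (4.07-fold). *RRP12* averaged 128 ± 13.4 CPM in MDA-MB-231, 57.4 ± 16.1 for HCC1954, 99.8 ± 12.6 for OVCAR8 and 20.6 ± 4.21 for SKOV3 (SD over the 3 versions of a line, n = 3, here and in the next sentences). *NOP16* averaged 87.7 ± 23.0 CPM in MDA-MB-231, 51.2 ± 12.8 for HCC1954, 118 ± 14.3 for OVCAR8 and 20.9 ± 5.01 for SKOV3. The *DDX10* means were 76.1 ± 9.16 CPM in MDA-MB-231, 37.0 ± 5.90 for HCC1954, 149 ± 8.94 for OVCAR8 and 34.3 ± 4.53 for SKOV3, with OVCAR8 above MDA-MB-231 and both above the other lines by more than the SDs. For *RIOK1* the means were 60.01 ± 4.57 CPM in MDA-MB-231, 28.1 ± 5.32 for HCC1954, 83.5 ± 6.63 for OVCAR8 and 20.5 ± 1.75 for SKOV3, in the same order of lines. The narrowest ranges were those of *NOP14* (1.42-fold), *NOC2L* (1.46-fold) and *PES1* (1.49-fold), and the means of *NOP14* were 93.3 ± 6.66 CPM in MDA-MB-231, 82.0 ± 23.0 for HCC1954, 96.4 ± 6.30 for OVCAR8 and 68.7 ± 11.3 for SKOV3. For *NOP14* the means of OVCAR8 and MDA-MB-231, and of MDA-MB-231 and HCC1954, differed by less than the larger SD of each pair. *PNO1* averaged 51.7 ± 10.4 CPM in MDA-MB-231, 49.5 ± 12.7 for HCC1954, 60.1 ± 5.94 for OVCAR8 and 31.3 ± 8.71 for SKOV3, and its levels in MDA-MB-231, HCC1954 and OVCAR8 overlapped among their 3 versions.

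Tissue was examined as a difference of the SIVA-D160N change between ovarian and breast lines, with 2 lines each. No member passed an adjusted p of 0.05 (0.00581% of all genes did, 1 gene), and the lowest adjusted p of a member was 0.972. *UTP20* (-0.45 ± 0.18, ovarian minus breast on the log2 scale) and *RRP9* (-0.65 ± 0.28) had an unadjusted p under 0.05, which 5.06% of all genes had. The difference was below 0 for 41 of the 46 members, with a median of -0.18, where 48.9% of all genes were below 0, with a median of 0.01. The 2 ovarian lines lay on opposite sides, with member medians of -0.08 in OVCAR8 and 0.40 in SKOV3.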

How the data were processed

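Messenger RNA of 12 cultures, 4 cell lines with 3 versions each, was sequenced as stranded TruSeq libraries, and the authors deposited a table of raw counts per gene. According to the submitters' processing notes, FastQC, STAR 2.5.3a, edgeR and GRCh38 were used; the annotation release is not given in the sources used here. The second deposited table, of normalised values, was not used, and 0 count columns were without a library. From the counts, CPM were computed with TMM-scaled library totals in edgeR 4.0.16 (R 4.3.3). Genes that passed filterByExpr by version, 17211 of 57187, entered edgeR's quasi-likelihood test with line and version as terms over all 12 libraries, and calls needed a Benjamini-Hochberg adjusted p under 0.05 and a log2 fold change of at least 1.5. An SE is the log2 fold change divided by the root of the F statistic. Log2 ratios within a line used a prior count of 2. The script was first tested on simulated counts.

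The line is the pairing block, because same-line libraries are versions of 1 cell line. Their deviations from the version means correlated at 0.929 to 0.968. Libraries of different lines gave -0.447 to -0.191. Subtracting the mean of the 4 lines pulls these values below 0, so that their sign carries no information. The 3 comparisons share libraries. With 1 library per line and version, p-values of the comparisons between versions measure the spread of responses among the 4 lines. Lines were also compared with the version as a term, with the 3 libraries of a line as its replicates. Ovarian lines were compared with breast lines by an interaction term. Exact sign-flip permutation tests covered SIVA1, MYC and PNO1. The members and gene lists were chosen with earlier results of these data known. Values in every library were given for anchor genes of each role, for the members of each comparison with the 3 highest fitted changes in a direction shared by 4 lines at an unadjusted p under 0.05, and for the 4 widest and 3 narrowest ranges among lines; other members are named with fitted values only. Alternatives were DESeq2 1.42.0, limma-voom (limma 3.58.1), RLE, upper-quartile and total-count scaling, no filter on low counts, no line term, and leaving out each line. Promoters and motif positions came from RefSeq (GRCh38.p14). Plots used Python 3.11.15 with matplotlib 3.10.9.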

Additional observations from a re-analysis of the deposited data

Results flagged for a closer look

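Values of the 4 lines were compared for the log2 ratios of 25 named members and the member median in each of the 3 comparisons, and for the total counts and the summed CPM of the members in each of the 3 versions, 84 sets of 4 in all, and in 6 of them the highest or lowest line lay farther from the others than Dixon's critical value for 4 values allows. Chance alone gives about 1 in 20, or 4.2 of 84 sets.

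OVCAR8 was the separate line in 4 of the 6, all in SIVA-D160N vs parental. The median log2 ratio of the 46 members was -0.078 in OVCAR8 and 0.35 to 0.40 in the other lines. The log2 ratio of *FBL* was -0.43 in OVCAR8 and 0.17 to 0.20 in the others. *PES1* had a log2 ratio of -0.30 in OVCAR8 and 0.35 to 0.47 in the others. For *DDX10* it was -0.074 in OVCAR8 and 0.32 to 0.38 in the others.

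The other 2 sets concerned SKOV3 and HCC1954. The log2 ratio of *PNO1* in SIVA-WT vs parental was 0.28 in SKOV3 and between -0.19 and -0.15 in the other lines. The log2 ratio of *FBL* in SIVA-D160N vs SIVA-WT was 0.57 in HCC1954 and no more than 0.07 in any other line. The cause was not tested in any of the 6.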

How the results depend on the processing

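With DESeq2, limma-voom, RLE, upper-quartile or total-count scaling, or no filter on low counts, the members at an unadjusted p under 0.05 stayed within 1.5 times the counts in the report for both SIVA-D160N comparisons, and in SIVA-WT vs parental the count was 1 with total-count scaling in place of 0. The count of members past both thresholds was 0 under every alternative. An adjusted p under 0.05 without a fold limit was reached vs parental by 8 members with DESeq2, 2 with limma-voom and 5 with no filter. Of all genes, 340 and 67 of 17211 reached it with DESeq2 and limma-voom, and 552 of 34909 with no filter. Vs SIVA-WT *PNO1* reached it with no filter, as 1 of 109 of the 34909 genes.

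Without the replicate block, the count at an unadjusted p under 0.05 was 0 vs parental and 0 vs SIVA-WT, since the differences between lines then enter the error. Of all genes, 0.139% and 0.0291% reached that p. The fitted log2 fold change also changed sign in that fit for *FBL* (-0.013) and *RIOK2* (-0.0055) vs parental, *MYC* vs SIVA-WT (-0.029) and *RRS1* in SIVA-WT vs parental (-0.020), and with upper-quartile scaling for *RIOK2* vs parental (-0.013).

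Leaving out 1 line at a time, the count ranged from 12 (without SKOV3) to 33 (without OVCAR8) vs parental, from 6 (without HCC1954) to 36 (without OVCAR8) vs SIVA-WT, and from 0 to 1 in SIVA-WT vs parental. The shares of all genes in the named fits were 13.4% and 14.9% vs parental and 1.93% and 6.32% vs SIVA-WT. In SIVA-WT vs parental the share ran from 2.26% to 3.88%. The member median ranged from 0.20 to 0.35, from 0.19 to 0.35 and from -0.11 to 0.03. Signs changed in these fits for *MYC* (-0.41 to 0.011), *FBL* (-0.026 to 0.19), *NOB1* (-0.12 to 0.075) and *RIOK2* (-0.032 to 0.041) vs parental, for *MYC* (-0.016 to 0.19) and *NOB1* (-0.0017 to 0.23) vs SIVA-WT, and for *RRS1* (-0.095 to 0.27) in SIVA-WT vs parental. Each had an unadjusted p above 0.05 in the fit of the report. The cause was not tested. The members had 468 or more counts in each library, and an effect of depth on their values was not tested.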
